A study of Mus musculus with 8 samples.

Results

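The proteasome is the protease of the cytosol and nucleus, and its subunits and assembly factors were followed here as messenger RNA in mouse heart. The genes were taken by symbol from the table of read counts: every row whose symbol starts with Psma, Psmb, Psmc, Psmd, Psme, Psmf or Psmg followed by a digit, except Psmb8, Psmb9, Psmb10 and names holding -ps. This gave 47 of the 27304 rows, and all 47 had enough reads to be tested. Of these, 46 fall into 6 role groups, and Psmc3ip, which carries the name of a subunit it binds but is a factor of meiotic recombination, fits the symbol rule and belongs to none of them. Libraries were made from heart tissue. The animals were male mice of the inbred strain 129/Sv, kept for 13 weeks on either of 2 diets. In the Adenine group (4 libraries) the diet held 0.15% adenine, which injures the kidney and brought on chronic kidney disease, and in the Sham group (4 libraries) it was a standard diet. The labels name no altered gene in either group. The labels do not say that each library came from its own animal, and the design text speaks of no replicates, so p-values measure only the spread between these libraries, which may be technical.

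The proteasome degrades proteins that carry ubiquitin chains. Its core particle is a barrel of stacked rings, with alpha subunits outside, which gate the entrance, and beta subunits inside, of which some are proteases. A regulatory particle on the end of the barrel recognises ubiquitin, removes it and uses a ring of ATPases to unfold the substrate and push it into the core. In heart muscle the system turns over damaged and sarcomeric proteins, and its subunit genes are known to be induced together by the transcription factor NFE2L1 when proteasome activity falls short.

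Adenine libraries held 15626620 to 29831706 counted reads and Sham libraries 24107554 to 33886385, the lowest total being that of Adenine 2. A member had between 12 and 7088 reads in a library, and only Psma8, Psmb11, Psmc3ip, Psme2b and Psmg3 had under 100 reads in any. Defining genes of heart muscle were abundant in every library: 10 cardiomyocyte markers summed to 35423 to 60232 CPM in the Adenine libraries and 51819 to 63912 CPM in the Sham libraries, where CPM is a library's count scaled to a common total with TMM factors. Adenine 3 had the lowest of these sums, and its 10 macrophage markers summed to 2804 CPM, against 339.7 to 517 CPM in Adenine 1, 2 and 4 and 426 to 729.7 CPM in Sham 1 to 4. No marker of erythroid cells, fibroblasts or endothelium was called in edgeR. The 7 erythroid markers, all with negative estimates, 5 of them at an unadjusted p under 0.05, and a median log2 fold change of -2.07, summed to 1664 to 3092 CPM in Adenine and 7019 to 26088 CPM in Sham libraries, which do not overlap. Among the 10 fibroblast markers, Col1a1, Col1a2 and Mfap5 had positive estimates of 0.54, 0.89 and 0.89. The 10 had a median of -0.66, with 6 lower at an unadjusted p under 0.05, and summed to 1126 to 2598 CPM in Adenine and 2005 to 3071 CPM in Sham libraries. The 10 endothelial markers had a median of -0.38, with 5 lower and 1 higher at that level, and summed to 661 to 930.3 CPM in Adenine and 783 to 1082 CPM in Sham libraries. The part of these markers in the members' values was not tested. Adenine 2 and Adenine 1 had the highest shares of mitochondrially encoded reads, 41.9% and 41.0%, against 31.0% to 35.6% in the others. Adenine 2 also had the most reads on 1470 olfactory and vomeronasal receptor genes, 2007 CPM against 423 to 1225 CPM in the other 7 libraries.

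No member passed the test of the diet. In edgeR's quasi-likelihood test with Benjamini-Hochberg adjustment over 20093 genes, 0 of the 47 members were called at an adjusted p under 0.05, where 8 genes, 0.0398% of those tested, were called higher and 0, or 0%, lower. Adjusted p-values of the members ran from 0.249 to 0.988. DESeq2 also called 0 members (lowest adjusted p = 0.106), where it called 0.866% higher and 0.991% lower, 1.86% in all, of the 17662 genes it gave an adjusted p. The tool limma-voom called 0 members too (lowest adjusted p = 0.336), where it called 0.0249% of all genes higher and 0% lower. At an unadjusted p under 0.05, 3 members were lower and 1 was higher in edgeR, next to 6.63% and 10.9% of all genes. In DESeq2 2 were lower and 1 higher, next to 6.18% and 12.9% of all genes, and in limma-voom 2 and 1, next to 6.37% and 7.06%.

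The estimates themselves were small. Of the 47 log2 fold changes, Adenine minus Sham, 42 were negative with a median of -0.12 under TMM scaling, and 19 were negative with a median of 0.02 under upper-quartile scaling, which moved the median of all genes by 0.14. Values given without a scaling are those under TMM. Over all genes tested 45.8% were negative and the median was 0.05, but that comparison mixes levels. A boundary at a mean of 5 on the log2 CPM scale was set after the values were seen. Among the 3625 genes over it 81.8% were negative and the median was -0.17. The 35 members over that level had a median of -0.12 with 33 negative. Below it the background went the other way: of 16468 genes 37.8% were negative and the median was 0.19. The 12 members below it, all 7 assembly factors among them, had a median of -0.14 with 9 negative. Leaving aside Psmb11 and Psmc3ip, the members lay between -0.37 and 0.11, with standard errors of 0.12 to 0.28. Only 1 member, Psmc3ip, had all Adenine libraries below all Sham libraries, and 0 had them all above, next to 3.84% and 3.45% of all genes.

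**Figure D1:**
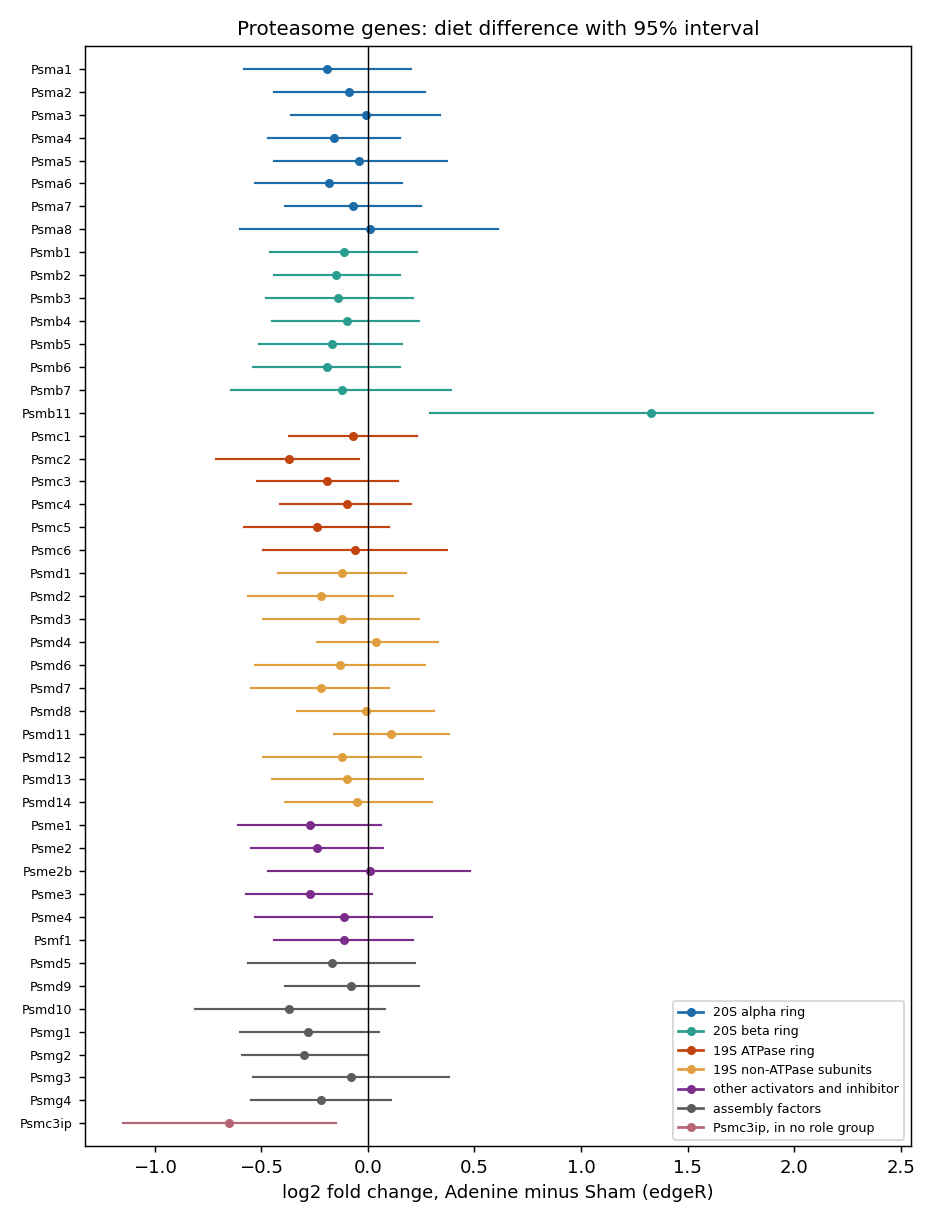
Log2 fold change of each of the 47 genes, Adenine minus Sham, on the horizontal axis, with the 95% interval as a line and colours for the role groups. Points sit mostly just left of 0 (median -0.12 with TMM and 0.02 with upper-quartile scaling), and only Psmc3ip, Psmc2, Psmg2 and Psmb11 have an interval that leaves out 0, without adjustment for the number of genes.

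The alpha ring of the core particle had 8 genes, 7 of them with negative estimates, and a median log2 fold change of -0.08 (3 and 0.06 under upper-quartile scaling). Psma1, a subunit of every core particle, had 76.6, 71.1, 104 and 75.8 CPM in Adenine 1 to 4 and 97.1, 117, 89.8 and 69.7 CPM in Sham 1 to 4. Adenine 3 and Sham 4 break the order of the diets, so the groups overlap, and the log2 fold change was -0.19 (SE 0.18), with an adjusted p of 0.533 in edgeR. Psma6, another constitutive alpha subunit, had 78.04, 67.9, 86.4 and 78.8 CPM in Adenine 1 to 4 and 91.8, 107, 86.9 and 68.7 CPM in Sham 1 to 4, with a log2 fold change of -0.18 (SE 0.16) and an adjusted p of 0.4899. Its Adenine values all fall inside or just below the Sham range. Psma4 had 89.5, 77.8, 105 and 83.7 CPM in Adenine 1 to 4 and 95.6, 108, 104 and 90.9 CPM in Sham 1 to 4, and its log2 fold change was -0.16 (SE 0.14, adjusted p = 0.501 in edgeR). Other constitutive alpha genes had estimates closer to 0 and a wide range between libraries. Psma5 was at 40.5, 34.3, 64.9 and 39.5 CPM in Adenine 1 to 4, against 46.9, 50.95, 45.9 and 40.1 CPM in Sham 1 to 4. Adenine 3 thus lay above every Sham library and the other 3 Adenine libraries below the Sham mean, and the log2 fold change was -0.04. The same library was the highest of all 8 for Psma2, with 69.97, 62.4, 97.7 and 67.6 CPM in Adenine 1 to 4 and 80.2, 89.03, 78.1 and 68.5 CPM in Sham 1 to 4, and for Psma3, with 73.8, 73.6, 108 and 73.3 CPM in Adenine 1 to 4 and 81.9, 93.9, 80.1 and 74.9 CPM in Sham 1 to 4. Psma7 had 107 ± 14.04 CPM in the Adenine libraries and 112 ± 11.2 CPM in the Sham libraries (SD, n = 4 each) and a log2 fold change of -0.07.

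Psma8 is the alpha subunit that takes the place of Psma7 in mouse spermatocytes. It had 50 to 99 reads in the Adenine libraries and 58 to 85 reads in the Sham libraries, or 2.24, 3.12, 3.15 and 1.87 CPM in Adenine 1 to 4 and 2.64, 2.27, 3.17 and 2.22 CPM in Sham 1 to 4. The diets overlap fully, with a log2 fold change of 0.01 (SE 0.28). Of 6 germ cell markers, Prm1, Prm2, Tnp1 and Dazl did not pass the filter on low counts, and the list summed to 2.64 to 7.34 CPM in the Adenine libraries and 1.87 to 3.66 CPM in the Sham libraries.

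The beta ring had 8 genes and a median log2 fold change of -0.13, with 7 estimates below 0 (0.01 and 2 under upper-quartile scaling). The proteolytic sites sit in Psmb5 (chymotrypsin-like), Psmb6 (caspase-like) and Psmb7 (trypsin-like). Psmb5 was at 61.1, 40.1, 61.6 and 56.04 CPM in Adenine 1 to 4, against 64.7, 65.3, 58.7 and 57.9 CPM in Sham 1 to 4. Adenine 2 and Adenine 4 lie below every Sham library and the other Adenine libraries inside the Sham range, and the log2 fold change was -0.17 (SE 0.16), with a 95% interval of -0.51 to 0.16 (adjusted p = 0.513, edgeR). Psmb6 had 132, 87.8, 121 and 111 CPM in Adenine 1 to 4 and 136, 142, 118 and 122 CPM in Sham 1 to 4, again with Adenine 2 lowest, and a log2 fold change of -0.19 (SE 0.16), with an interval of -0.54 to 0.15 (adjusted p = 0.474, edgeR). Psmb7 varied more than any other constitutive core gene: it was at 65.4, 49.8, 104 and 59.8 CPM in Adenine 1 to 4, against 80.6, 98.1, 73.96 and 50.8 CPM in Sham 1 to 4. The highest library was 2.08 times the lowest, both of them in the Adenine group, and the log2 fold change of -0.12 (SE 0.24) has an interval of -0.64 to 0.39 (adjusted p = 0.766, edgeR). Without Adenine 2 the estimate was 0.007 and without Sham 2 it was 0.037. Exons of Psmb7 overlap Nek6 on the opposite strand over 405 bases, and the labels give no strand setting for the counting. In all, 10 members share exonic bases with a gene on the opposite strand and 4 with one on the same strand. The structural subunits Psmb1, Psmb2, Psmb3 and Psmb4 had log2 fold changes of -0.11, -0.15, -0.14 and -0.10. Psmb4, the member of this ring with the most reads, averaged 129 ± 18.7 CPM in the Adenine libraries and 139 ± 17.2 CPM in the Sham libraries (SD, n = 4 each).

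Summed over the 14 constitutive core genes (Psma1 to Psma7 and Psmb1 to Psmb7), transcript abundance was 1174, 965, 1411 and 1114 CPM in Adenine 1 to 4, against 1288, 1454, 1239 and 1107 CPM in Sham 1 to 4. Every one of the 14 estimates was negative under TMM scaling, from -0.19 to -0.01, while 5 were negative under upper-quartile scaling, and none passed. The lowest Sham sum is below that of 3 Adenine libraries, so the sums of the diets overlap. In whole tissue, fewer cells of a type and less RNA per cell cannot be told apart.

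Psmb11 encodes the beta subunit that replaces Psmb5 in the thymoproteasome of cortical thymic epithelium, and it is the neighbour of Psmb5 on chromosome 14. On GRCm38, Psmb5 (ENSMUSG00000022193) spans chr14:54614119-54618022 on the minus strand and Psmb11 (ENSMUSG00000072423) chr14:54621433-54629556 on the plus strand. The 250 bases before the RefSeq start of each gene (GRCm38.p6, 5′ to 3′ on the gene's strand) are shown. These neighbours were chosen because, on the union of annotated exons, they lie near the top and at the bottom of the ring in level per length. With the longest transcript as length, Psmb2, Psmb4 and Psmb6 stood above Psmb5 in both diets. Capitals mark matches to TGACNNNGC, the core of the antioxidant response element that NFE2L1 and NFE2L2 bind, and to CGGAAGT, a core of ETS factors, on either strand.
Psmb5, chr14:54617996-54618245, minus strand: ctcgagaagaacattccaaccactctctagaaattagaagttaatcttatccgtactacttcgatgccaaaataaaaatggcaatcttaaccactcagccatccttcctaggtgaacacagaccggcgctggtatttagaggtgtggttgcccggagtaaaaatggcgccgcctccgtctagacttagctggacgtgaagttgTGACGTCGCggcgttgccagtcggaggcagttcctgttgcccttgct
Psmb11, chr14:54625060-54625309, plus strand: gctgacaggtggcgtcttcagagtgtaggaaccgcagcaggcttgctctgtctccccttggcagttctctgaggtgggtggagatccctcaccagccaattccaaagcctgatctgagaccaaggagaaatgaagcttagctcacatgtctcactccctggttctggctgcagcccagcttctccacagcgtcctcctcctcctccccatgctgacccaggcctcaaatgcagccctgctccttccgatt
The Psmb5 window holds the antioxidant element core starting 47 bases before the start, and the Psmb11 window has neither set of letters. RefSeq starts differ from the ends of the gene spans: the Psmb11 window lies wholly inside its gene span and the Psmb5 window partly inside its own.

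Psmb11 was at 1.799, 2.996, 0.7004 and 2.17 CPM in Adenine 1 to 4, against 0.645, 0.407, 0.745 and 1.22 CPM in Sham 1 to 4. These values rest on 45, 49, 22 and 58 reads in Adenine 1 to 4 and 20, 12, 20 and 32 reads in Sham 1 to 4. Adenine 1, 2 and 4 lay above every Sham library and Adenine 3 inside the Sham range. Its log2 fold change of 1.33 (SE 0.48) was the highest of all members, with an unadjusted p of 0.0161 and an adjusted p of 0.2502 in edgeR. Over the alternative fits the estimate ran from 0.443 (adjusted p = 0.702, edgeR with 1 surrogate variable) to 1.652 (adjusted p = 0.171, edgeR without Sham 4). It was 0.837 without both replicates 2 (adjusted p = 0.82), 1.040 without Adenine 2 (adjusted p = 0.512) and 1.604 without Adenine 3 (adjusted p = 0.0673, the lowest of the range, which reached 0.82). The 1470 olfactory and vomeronasal receptor genes summed to 729.6, 2007, 652 and 1225 CPM in Adenine 1 to 4 and 582, 423, 827 and 850.0 CPM in Sham 1 to 4. Psmb11 and this sum were both highest in Adenine 2, next in Adenine 4 and lowest in Sham 2. The 5 thymic epithelial markers summed to 9.42 to 19.8 CPM in the Adenine libraries and 7.22 to 11.5 CPM in the Sham libraries, and their defining gene Foxn1 had 1.599, 2.45, 0.764 and 2.43 CPM in Adenine 1 to 4 and 0.645, 0.373, 0.782 and 1.72 CPM in Sham 1 to 4. The part of either sum in the Psmb11 values was not tested.

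All 6 genes of the ATPase ring had negative estimates, with a median log2 fold change of -0.15 (3 and 0.00 under upper-quartile scaling). Psmc2 had the lowest p among genes of proteasome subunits other than Psmb11. It was at 81.7, 64.02, 80.4 and 85.05 CPM in Adenine 1 to 4, against 108, 115, 97.2 and 82.3 CPM in Sham 1 to 4. Sham 4 lies below Adenine 4, and otherwise every Adenine library is below every Sham library. The log2 fold change was -0.37 (SE 0.15), with an unadjusted p of 0.0318 and an adjusted p of 0.271 in edgeR. Psmc5 had 89.1, 65.6, 57.9 and 77.5 CPM in Adenine 1 to 4 and 85.5, 96.9, 82.9 and 77.5 CPM in Sham 1 to 4, with its lowest value in Adenine 3 and a log2 fold change of -0.24 (SE 0.16, adjusted p = 0.392 in edgeR). Psmc3 had 158, 139.7, 162 and 156 CPM in Adenine 1 to 4 and 171, 207, 174 and 150.1 CPM in Sham 1 to 4, and its log2 fold change was -0.19 (SE 0.15, adjusted p = 0.464 in edgeR). Exons of Psmc3 overlap Slc39a13 on the opposite strand over 215 bases. Psmc4 had -0.10, and the nearest to 0 were Psmc6, with -0.06, and Psmc1, with -0.07. Psmc1 was also the steadiest of the ring, with 115, 104, 121 and 123 CPM in Adenine 1 to 4 and 118, 131, 129 and 108 CPM in Sham 1 to 4. Its diets overlap, and the highest library was 1.26 times the lowest.

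The sequences before the RefSeq starts of Psmc1 and Psmc2 are given as well. They are the steadiest gene of the ATPase ring and the gene with its lowest p, and both carry the ETS core. RefSeq lists Psmc2 with 2 starts. The windows, capitals and strand convention are those given for Psmb5.
Psmc1, chr12:100109952-100110201, plus strand: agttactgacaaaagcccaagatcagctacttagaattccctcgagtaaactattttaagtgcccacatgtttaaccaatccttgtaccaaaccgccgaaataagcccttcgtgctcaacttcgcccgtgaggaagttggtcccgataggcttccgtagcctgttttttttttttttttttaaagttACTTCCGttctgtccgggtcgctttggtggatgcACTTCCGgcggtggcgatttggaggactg
Psmc2, chr5:21785025-21785274, plus strand: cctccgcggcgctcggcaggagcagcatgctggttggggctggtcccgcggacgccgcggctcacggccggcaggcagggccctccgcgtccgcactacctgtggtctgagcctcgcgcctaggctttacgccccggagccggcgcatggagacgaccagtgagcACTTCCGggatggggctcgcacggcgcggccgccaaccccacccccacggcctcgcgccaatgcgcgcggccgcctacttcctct
Psmc2, second start, chr5:21786497-21786746, plus strand: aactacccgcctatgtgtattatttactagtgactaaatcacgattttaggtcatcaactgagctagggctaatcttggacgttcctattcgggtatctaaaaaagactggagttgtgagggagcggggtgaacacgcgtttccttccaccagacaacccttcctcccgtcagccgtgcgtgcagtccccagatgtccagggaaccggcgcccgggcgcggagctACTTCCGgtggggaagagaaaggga
In each of the 3 windows the ETS core is read on the opposite strand. It occurs once before each Psmc2 start, 85 and 25 bases upstream, and at 63 and at 29 bases before the Psmc1 start. Psmc2 (ENSMUSG00000028932) spans chr5:21785283-21803787 and Psmc1 (ENSMUSG00000021178) chr12:100110154-100123405, both on the plus strand. The second Psmc2 window therefore lies inside the gene span, and the end of the Psmc1 window, with its nearer ETS core, inside that of Psmc1.

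The 11 non-ATPase genes of the regulatory particle had a median log2 fold change of -0.12, with 9 negative and 2 positive estimates (0.03 and 2 negative under upper-quartile scaling). Psmd2, a large scaffold subunit of its base, was at 134, 127, 127 and 148 CPM in Adenine 1 to 4, against 167, 183, 152 and 123 CPM in Sham 1 to 4, with a log2 fold change of -0.22 (SE 0.16, adjusted p = 0.422 in edgeR). All Adenine values are inside the Sham range, below 3 of the 4 Sham libraries. Psmd7, the partner of the deubiquitinase Psmd14 in the lid, had 95.9, 77.4, 84.3 and 106 CPM in Adenine 1 to 4 and 103, 114, 114 and 93.3 CPM in Sham 1 to 4 and a log2 fold change of -0.22 (SE 0.15, adjusted p = 0.392 in edgeR). Psmd14 itself had 32.3 ± 5.25 CPM in the Adenine libraries and 33.4 ± 5.24 CPM in the Sham libraries (SD, n = 4 each), with a log2 fold change of -0.05. Positive estimates were those of Psmd11, a lid subunit, with 62.2, 58.4, 57.9 and 63.5 CPM in Adenine 1 to 4 and 53.1, 60.2, 56.9 and 53.8 CPM in Sham 1 to 4, and of Psmd4, a ubiquitin receptor, with 83.2 ± 8.04 CPM in the Adenine libraries and 80.8 ± 4.77 CPM in the Sham libraries. For Psmd11 the log2 fold change was 0.11 (SE 0.12, adjusted p = 0.593 in edgeR), with Adenine 1 and 4 above every Sham library. For Psmd4 it was 0.04. Psmd1, the other large scaffold, had -0.12, and the lid genes Psmd3, Psmd6, Psmd8, Psmd12 and Psmd13 had -0.12, -0.13, -0.01, -0.12 and -0.10. Psmd3 and Psmd6 part in Adenine 3. Psmd3 was at 90.8, 63.8, 58.2 and 90.1 CPM in Adenine 1 to 4 and 85.8, 90.3, 78.7 and 75.1 CPM in Sham 1 to 4, so that this library was its lowest of all 8. Psmd6 was at 45.9, 44.7, 66.9 and 46.02 CPM in Adenine 1 to 4 and 57.4, 70.4, 53.5 and 41.5 CPM in Sham 1 to 4, so that this library was the highest of its group.

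Other activators of the core and its inhibitor gave 6 genes, 5 of them with negative estimates, and a median log2 fold change of -0.18 (3 and -0.04 under upper-quartile scaling). Psme3, whose product forms a nuclear activator, had 34.98, 33.02, 33.2 and 35.1 CPM in Adenine 1 to 4 and 46.00, 45.5, 38.4 and 35.1 CPM in Sham 1 to 4. The Adenine libraries lie within a narrow range that meets the bottom of the Sham range, where Sham 4 is just below Adenine 4, and the log2 fold change was -0.27 (SE 0.13, adjusted p = 0.2999 in edgeR). Psme1 and Psme2 encode the subunits of an interferon-inducible activator. Psme1 had 122, 93.3, 87.9 and 98.7 CPM in Adenine 1 to 4 and 128, 133, 103 and 121 CPM in Sham 1 to 4, and its log2 fold change was -0.27 (SE 0.15, adjusted p = 0.343 in edgeR). Psme2 had 48.98, 34.9, 50.9 and 43.2 CPM in Adenine 1 to 4 and 54.4, 55.3, 48.9 and 51.7 CPM in Sham 1 to 4, with -0.24 (SE 0.15, adjusted p = 0.362 in edgeR). Below every Sham library were 3 Adenine libraries for Psme1 and 2 for Psme2. Psme2b is a copy close in sequence to Psme2, reads may be split between them, and its log2 fold change of 0.01 is uncertain to that extent. Psme4, which encodes the large activator PA200, had the highest CPM of any member, with 175, 187, 226 and 166 CPM in Adenine 1 to 4 and 207, 228, 241 and 139 CPM in Sham 1 to 4. Its spread within Sham exceeded the difference between the diets, and the log2 fold change was -0.11. Psmf1, which encodes a proline-rich inhibitor of the core, had 14.3 ± 1.25 CPM in the Adenine libraries and 15.4 ± 2.38 CPM in the Sham libraries (SD, n = 4 each) and -0.11.

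Assembly factors, the chaperones that build the core and the ATPase ring and then leave, had the lowest median of the role groups, -0.22, and all 7 estimates were negative (-0.09 and 5 under upper-quartile scaling). Psmg1 and Psmg2 form the dimer that starts the alpha ring. Psmg2 was at 19.2, 17.98, 19.4 and 21.6 CPM in Adenine 1 to 4, against 23.4, 28.1, 21.6 and 23.2 CPM in Sham 1 to 4, with a log2 fold change of -0.30 (SE 0.14), an unadjusted p of 0.0468 and an adjusted p of 0.281 in edgeR. Adenine 4 and Sham 3 overlap by a small margin, and the other Adenine libraries are below every Sham library. Psmg1 had 16.6, 14.4, 13.1 and 15.5 CPM in Adenine 1 to 4 and 18.5, 21.8, 15.6 and 16.4 CPM in Sham 1 to 4, with -0.28 (SE 0.15, adjusted p = 0.328 in edgeR). Psmg3 and Psmg4, which form another chaperone dimer, had -0.08 and -0.22. Among the chaperones of the ATPase ring, Psmd10, also known as gankyrin, was at 9.56, 7.64, 12.9 and 9.83 CPM in Adenine 1 to 4, against 13.9, 16.6, 11.8 and 9.44 CPM in Sham 1 to 4. Sham 4 falls below 3 of the Adenine libraries, and the log2 fold change was -0.37 (SE 0.21, adjusted p = 0.338 in edgeR). Psmd5 and Psmd9 had -0.17 and -0.08, and exons of Psmd9 overlap the opposite-strand gene Gm26745 over 1849 bases.

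Psmc3ip, the recombination factor, was the member with the lowest p and the only one whose libraries separated by diet. Of all genes tested, 3.84% had every Adenine library below every Sham library. It was at 2.52, 2.38, 2.77 and 2.21 CPM in Adenine 1 to 4, against 3.58, 4.47, 4.06 and 3.44 CPM in Sham 1 to 4, from 63, 39, 87 and 59 reads in Adenine 1 to 4 and 111, 132, 109 and 90 reads in Sham 1 to 4. The log2 fold change was -0.65 (SE 0.23), with an unadjusted p of 0.0144 and an adjusted p of 0.249 in edgeR. The gene (ENSMUSG00000019303) spans chr11:101091823-101095436 on the minus strand, and 385 bases of its exons overlap Mlx on the opposite strand, so its reads may in part belong to that gene.

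**Figure D2:**
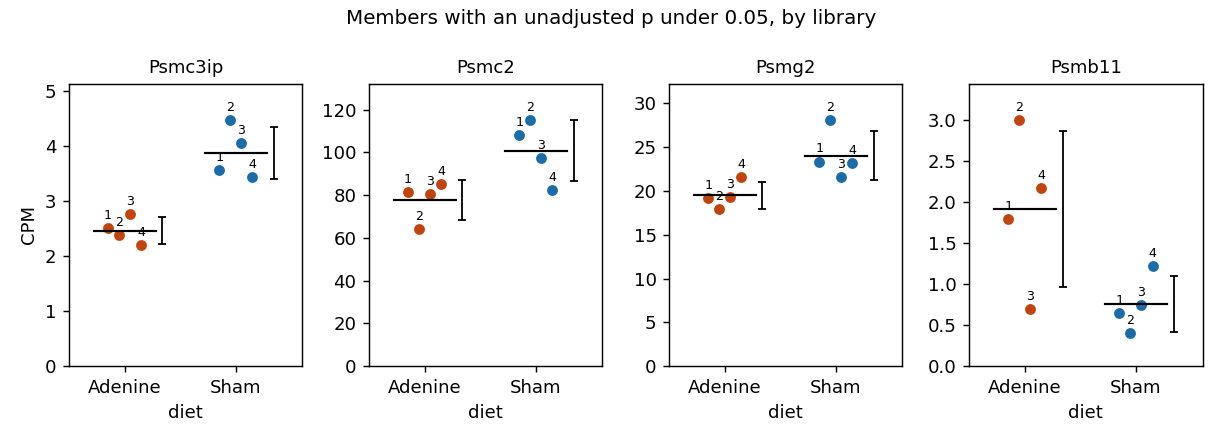
CPM (vertical axes, from 0) of the 4 members with an unadjusted p under 0.05, by diet, with 1 point per library labelled by its number, a line at the mean and a bar of 1 SD. Psmc3ip separates the diets, with 2.21 to 2.77 CPM in Adenine and 3.44 to 4.47 CPM in Sham libraries, while single libraries overlap for Psmc2, Psmg2 and Psmb11.

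Members tended to share their extreme libraries. Of the 47 members, 25 had their lowest value of all 8 libraries in Adenine 2 and 25 had their highest in Sham 2. That is 53.2% of members in each case, next to 44.8% and 45.9% of the genes over 5 on the log2 CPM scale and 18.5% and 22.1% of all genes tested. Sham 4 was lowest for 9 members, with 15.6% of those genes. Relative to the Sham mean, the median member was at -0.12, -0.33, -0.01 and -0.16 on the log2 scale in Adenine 1 to 4 and at 0.03, 0.17, -0.05 and -0.18 in Sham 1 to 4. The median of the genes over 5 log2 CPM followed closely, with -0.10, -0.35, -0.12 and -0.18 in the Adenine and 0.01, 0.16, -0.04 and -0.18 in the Sham libraries. Without both Adenine 2 and Sham 2, 22 of 47 estimates were negative and the median was 0.01.

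**Figure D3:**
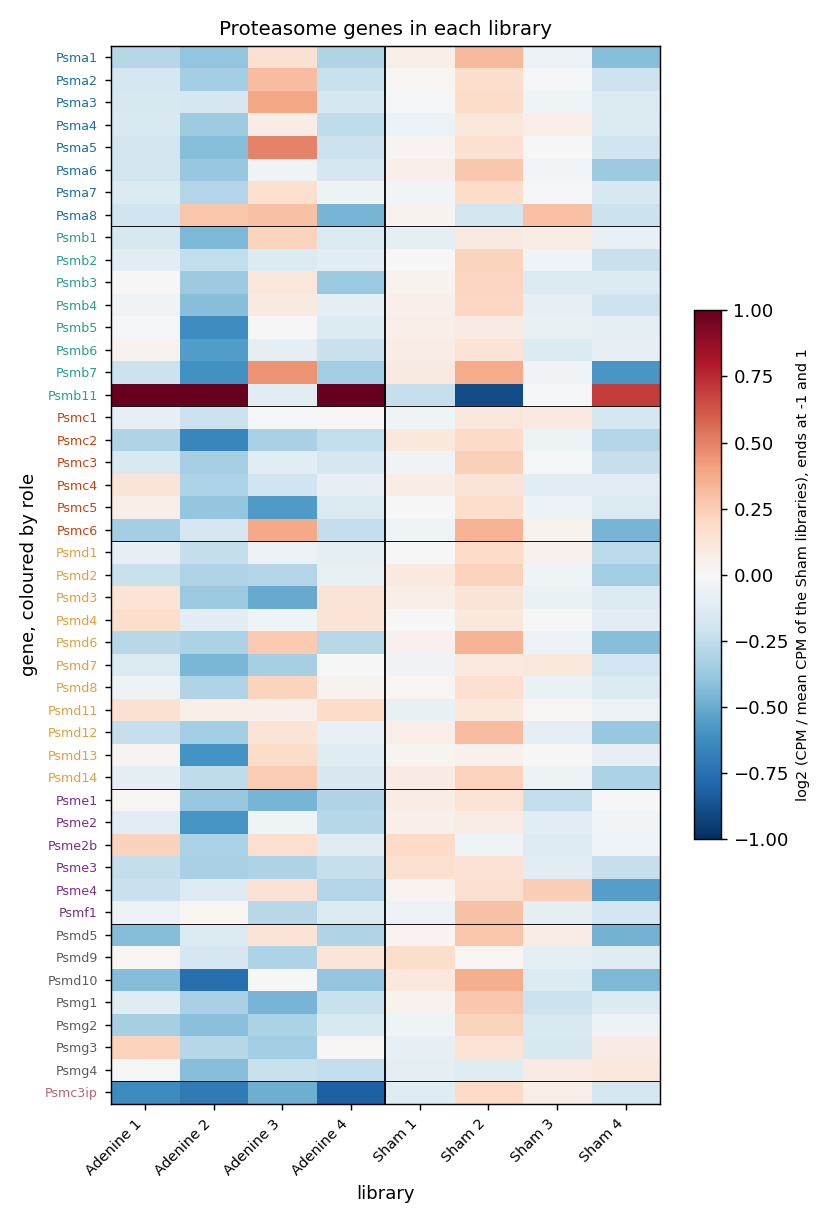
Colour gives the log2 ratio of a gene's CPM to its mean over the Sham libraries, for 47 genes (rows, by role) in 8 libraries (columns). Adenine 2 is blue for most genes and Sham 2 red. In Adenine 3 most alpha subunits are red and most ATPase, activator and assembly genes blue. Exceptions there include Psma6, slightly blue, and Psmc6, Psme2b, Psme4 and Psmd5, which are red.

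Adenine 3 split the role groups. In that library the alpha ring had a median of 0.23 relative to the Sham mean and the beta ring and the non-ATPase genes 0.05 each, whereas the ATPase ring was at -0.16, the activators and inhibitor at -0.16 and the assembly factors at -0.30. It was the highest of all libraries for 9 members (Psma2, Psma3, Psma5, Psmb1, Psmb7, Psmc6, Psmd8, Psmd13 and Psmd14). For 7 it was the lowest (Psmc5, Psmd3, Psmd9, Psme1, Psmf1, Psmg1 and Psmg3). These are 19.1% and 14.9% of members, next to 18.6% and 23.9% of the genes over 5 log2 CPM. Over all genes tested the shares were 13.8% and 18.7%, so such extremes in Adenine 3 were not particular to the members. In the other 7 libraries the medians of the role groups lay closer together: in Sham 2 they were 0.14 to 0.22 and in Adenine 2 -0.44 to -0.30. The sum of the macrophage markers, given above, was highest and that of the cardiomyocyte markers lowest in Adenine 3. Not every cardiomyocyte marker followed its sum: Tnnt2 and Tnnc1 were lowest in Adenine 2 and Pln in Sham 4. The part of these markers in the split of the role groups was not tested. Without Adenine 3, 44 of 47 estimates were negative, the median was -0.22 and 0 members were called.

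**Figure D4:**
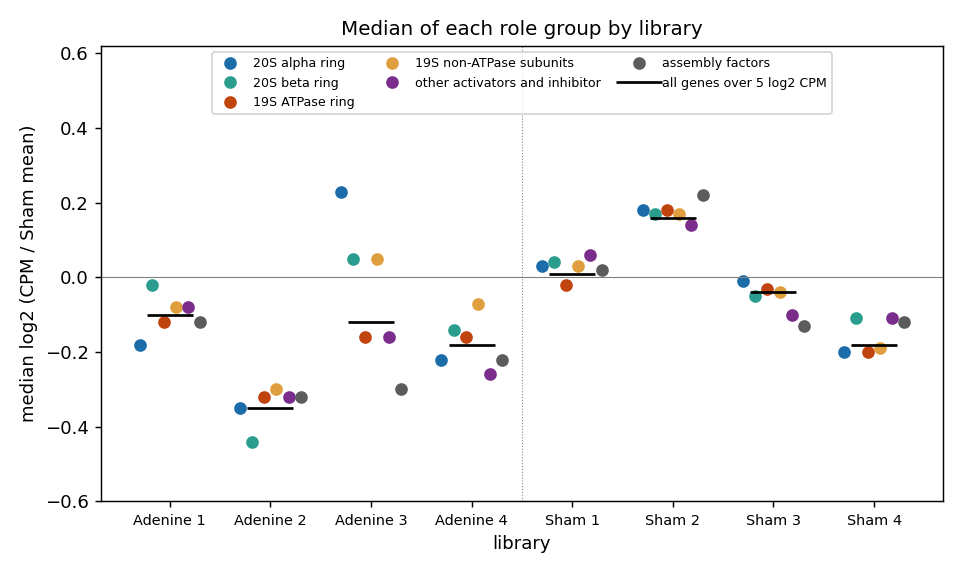
Median log2 ratio to the Sham mean (vertical axis) of each role group in each library (horizontal axis), with a black line for the genes over 5 log2 CPM. The role groups run close to the black line in the other 7 libraries and spread most in Adenine 3, from -0.30 for assembly factors to 0.23 for the alpha ring.

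Levels of different genes were compared as CPM per kilobase of exon, using the union of annotated exons. By that measure the 14 constitutive core genes lay within 3.27-fold of each other in the Adenine libraries, from 20.3 for Psma2 to 66.2 for Psmb4, and within 3.38-fold in the Sham libraries, from 21.2 for Psma3 to 71.7 for Psma6. Their median was 34.8 in Adenine and 37.4 in Sham libraries. Within the catalytic subunits, Psmb5 had 60.9 ± 11.2 in Adenine and 68.6 ± 4.29 in Sham libraries and Psmb6 had 60.4 ± 10.2 in Adenine and 69.2 ± 6.07 in Sham libraries (SD, n = 4 each), which do not differ beyond their spread on this length, and Psmb7 stood lower with 20.4 ± 6.88 in Adenine and 22.2 ± 5.73 in Sham libraries. The median of the ATPase ring was 37.6 in Adenine and 43.2 in Sham libraries, that of the non-ATPase genes 18.5 and 19.9, and that of the assembly factors 6.80 and 8.79. The tissue-restricted genes were far below the core. Psma8 had 1.04 ± 0.258 in Adenine and 1.03 ± 0.176 in Sham libraries and Psmb11 had 0.3999 ± 0.199 in Adenine and 0.158 ± 0.0716 in Sham libraries. With the longest transcript as length the core medians were 62.3 and 69.6, and the order among core genes changed, Psmb6 being highest and Psmb7 lowest in both diets. On that length Psmb6 was at 117 in Adenine and 134 in Sham libraries and Psmb5 at 60.9 and 68.6, so their likeness depends on the length used.

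**Figure D5:**
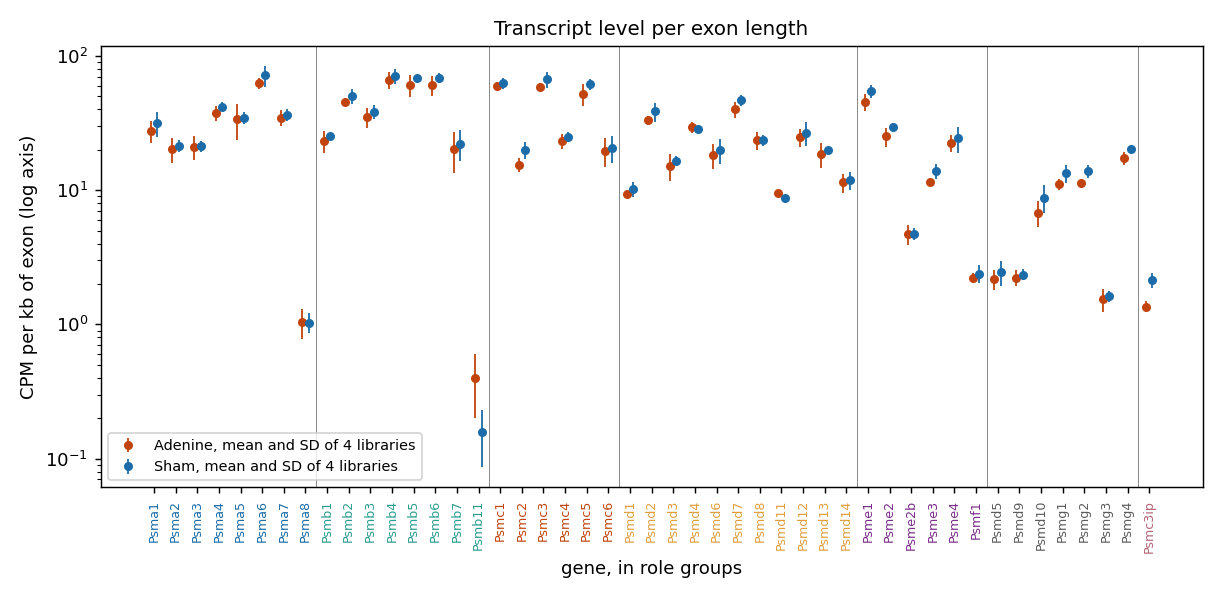
Mean CPM per kilobase of exon with SD over 4 libraries (vertical log axis) for each gene, grouped by role, with Adenine in orange and Sham in blue. Constitutive core and ATPase genes lie between about 15.5 and 71.7, assembly factors between 1.54 and 20.2, and Psma8 and Psmb11 lowest within their rings.

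RefSeq start regions (250 bases before to 50 after the start, GRCm38.p6) were found for 39 of the 47 members. The ETS core CGGAAGT, searched on both strands, was in the window of 14 of the 39 members, or 35.9%, next to 7.2% of 27025 genes with a window, 10.6% of the tested genes and 14.1% of the genes over 5 log2 CPM. They were Psma4, Psma6, Psmb4, Psmc1, Psmc2, Psmc4, Psmd6, Psmd8, Psmd12, Psmd13, Psmd14, Psme3, Psme4 and Psmg3. The shifted form CCGGAAG, whose letters overlap it, was in 15 members, or 38.5%, next to 9.93% of all genes and 19.8% of the genes over 5 log2 CPM. TGACNNNGC was in 6 members (Psmb5, Psmb6, Psmc6, Psmd9, Psmd12 and Psme4), or 15.4%. It was in 14% of all genes and 18.7% of the genes over 5 log2 CPM. The other 9 motifs searched are given as shares of members and of all genes. The wider antioxidant response element, which can overlap TGACNNNGC, was in 10.3% and 14.7%, CCAAT in 35.9% and 41.1%, and TATAAA in 7.69% and 15.7%. GGGCGG was in 56.4% and 38.2% (71.3% of the genes over 5 log2 CPM). CACGTG was in 7.69% and 8.09% and GAANNTTC in 5.13% and 9.04%. The element of nuclear respiratory factor was in only 2 members (Psma2 and Psmg1), or 5.13%. Its shares were 1.07% of all genes and 2.61% of the genes over 5 log2 CPM. TGACGTCA and TTTAAATT were in 0 members and in 2.03% and 2.13% of all genes. The median log2 fold change of the diet was -0.11 in members with CGGAAGT and -0.14 in those without it. It was -0.12 both with and without TGACNNNGC. Matches describe letters in these windows and are not binding sites.

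Genes that work with the proteasome but carry other symbols were read from lists in the same way, and 0 of them passed the test. Of the 4 further subunit and assembly genes (Adrm1, Pomp, Sem1 and Uchl5), 3 estimates were negative, with a median log2 fold change of -0.08 (1 and 0.06 under upper-quartile scaling). The lowest p was that of Uchl5, a deubiquitinase of the regulatory particle, with -0.18 (SE 0.14, adjusted p = 0.456 in edgeR). The inducible catalytic subunits of the immunoproteasome had -0.39 for Psmb8, -0.30 for Psmb9 and -0.10 for Psmb10. Psmb8 was at 9.76, 7.03, 14.1 and 10.9 CPM in Adenine 1 to 4 and 14.2, 11.6, 11.9 and 17.2 CPM in Sham 1 to 4, with an adjusted p of 0.329 in edgeR. Of 6 proteasome-associated genes 5 were negative, with a median of -0.09 (2 and 0.05 under upper-quartile scaling), and Zfand5, whose product stimulates the particle in atrophying muscle, had -0.33 (SE 0.16, adjusted p = 0.303 in edgeR).

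Nfe2l1, which encodes the regulator of subunit genes named at the outset, was at 322, 256, 256 and 327 CPM in Adenine 1 to 4, against 398, 412, 426 and 289 CPM in Sham 1 to 4. Sham 4 is below 2 Adenine libraries and the other Sham libraries are above all of them, with a log2 fold change of -0.39 (SE 0.18) and an adjusted p of 0.283 in edgeR. The protease Ddi2 and the glycanase Ngly1, which process its product, had 0.06 and 0.00. Of 5 genes that supply or activate ubiquitin 4 were negative, with a median of -0.33 (4 and -0.18 under upper-quartile scaling). All 9 genes of shuttle factors and the p97 complex were negative, with a median of -0.18 (5 and -0.03 under upper-quartile scaling). Of 7 ubiquitin ligase genes known from muscle all were negative, with a median of -0.16 (5 and 0.00 under upper-quartile scaling). The lowest p among them was that of Mdm2, with -0.25 (SE 0.17, adjusted p = 0.391 in edgeR), and the atrophy ligases Trim63 and Fbxo32 had -0.32 and -0.11.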

How the data were processed

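RNA was extracted from heart with a phenol-based reagent and sequenced from NEBNext Ultra libraries, per the labels' protocols. The aligner STAR 2.7.6a, FastQC 0.11.9 and the build GRCm38.p6 are listed in the submitters' processing notes. What counted the reads, with which annotation, strand setting and filters, is not stated in the labels. The authors deposited raw read counts per gene for 27304 genes, with no scaling. Groups and replicate numbers came from the sample titles. Gene positions and exon lengths came from GENCODE M21 (GRCm38), in which 27225 identifiers and all 47 members were found. Sequences of start regions came from RefSeq (GRCm38.p6), whose starts can differ from the ends of the GENCODE spans.

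The test was that of edgeR 4.0.16 under R 4.3.3 (default filter by group, TMM factors, quasi-likelihood F-test of diet, Benjamini-Hochberg adjustment over 20093 genes). The common biological coefficient of variation was 0.293. Standard errors were derived from the F statistic, and 95% intervals from its degrees of freedom. The fit was tested on simulated counts. Alternatives were DESeq2 1.42.0 (size factors and Wald test), limma-voom (limma 3.58.1), upper-quartile factors, removal of mitochondrially encoded genes, other filters, leaving out each library or both replicates numbered 2, a block for replicate number, and 1 surrogate variable (sva 3.50.0). Replicates differed by far more than sampling noise (chi-square test of the counts), and all 8 libraries were kept as separate samples. Intervals cover these libraries only.

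The members and lists were chosen with earlier results of these data known. Statistics are given for the 3 members with the lowest p in each role group, the 3 catalytic subunits, Psmc3ip and the gene with the lowest p of each other list. For 2 of those lists that gene is not reported here. Other genes given with values, and the boundary of 5 on the log2 CPM scale, were chosen after values were seen.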

Additional observations from a re-analysis of the deposited data

Results flagged for a closer look

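In 94 groups of 4 libraries (47 members in 2 diets), 3 held a library whose gap to the next value exceeded the 95% critical share of the group's range (Dixon's test), where chance gives about 1 group in 20. All 3 concern Adenine 3 as the highest Adenine library: Psma1 had 104 CPM there, Psma3 had 108 CPM and Psmd6 had 66.9 CPM. The other Adenine libraries lay between 71.1 and 76.6 CPM for Psma1, 73.3 and 73.8 CPM for Psma3 and 44.7 and 46.0 CPM for Psmd6.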

How the results depend on the processing

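No proteasome gene was called in any of the 18 alternative fits, whose lowest adjusted p for a member ran from 0.0673 to 0.748. The small common estimate did depend on the processing. The median log2 fold change of all members, -0.12, was 0.020 with upper-quartile factors and 0.022 with 1 surrogate variable. It was -0.045 with a filter of 1 CPM in 4 libraries (36 negative), 0.01 without both replicates numbered 2, and -0.22 to -0.06 with 1 library left out. Upper-quartile factors moved the median of all genes by 0.14 and dropping the low-count filter by 0.12. A comparison with all genes mixes levels. By default the 35 members over 5 log2 CPM had a median of -0.12, and all genes over that level had -0.17. The 12 members under that level had -0.14, and all genes under it had 0.19. Relative to all genes, members were at -0.18 by default and with upper-quartile factors, -0.30 with no low-count filter, -0.06 with 1 CPM in 4 libraries, -0.04 without both replicates 2, -0.28 to -0.10 with 1 library left out, and 0.04 with the surrogate variable, which took values of -0.66 to 0.23 in Adenine and -0.09 to 0.57 in Sham libraries. With the surrogate variable the medians were -0.013 for the ATPase ring, 0.114 for non-ATPase subunits, 0.104 for the alpha ring, 0.078 for the beta ring, -0.078 for assembly factors and -0.069 for activators and inhibitor. With upper-quartile factors they were 0.00 for the ATPase ring, 0.032 for non-ATPase subunits and -0.035 for activators and inhibitor, and without both replicates 2 they were -0.008, 0.086 and -0.061 for these groups, 0.051 for the alpha ring and 0.036 for the beta ring. With upper-quartile factors the alpha ring was at 0.063 and the beta ring at 0.012.

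Over all 47 members, 42 estimates were negative by default, 19 with upper-quartile factors, 20 with 1 surrogate variable and 22 without both replicates numbered 2. Single-gene values under the alternatives cover 27 genes, most of them chosen for a low p, which favours stable signs. Of these 486 values, 10 changed sign, and none of these genes was called. With the surrogate variable Psma1 had 0.103, Psma6 had 0.036, Psmb5 had 0.025 and Psmb7 had 0.326. Without both replicates 2, Psma1 had 0.023, Psmb5 had 0.000 and Psmb7 had 0.185. Psmb7 also had 0.020 with upper-quartile factors, and with 1 library left out it ran from -0.389 without Adenine 3 to 0.037 without Sham 2, being 0.007 without Adenine 2. The cause was not tested. Over all genes, 8 were called higher and 0 lower. These counts were 153 and 175 in DESeq2, 40 and 6 with the surrogate variable, 18 and 1 with upper-quartile factors, 5 and 0 in limma-voom and 21 and 10 at an adjusted p under 0.1. Without both replicates 2 they were 6 and 1, and with no low-count filter 8 and 1. With 1 library left out, 1 to 37 genes were called higher and 0 to 30 lower, most without Adenine 3. With the longest transcript the core medians per kilobase were 62.3 in Adenine and 69.6 in Sham libraries.

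The diets share replicate numbers, and the labels do not say that a number pairs libraries. Deviations of same-numbered libraries from their group means had correlations of 0.0863, -0.50, -0.16 and 0.30. Pairs with different numbers ran from -0.49 to 0.54, so these correlations cannot decide whether same-numbered libraries share more than a number. With the replicate number as a block, 16 genes were called higher, 16 lower and 0 members, and the median of the members was -0.13. Psma8, Psmb11, Psmc3ip, Psme2b and Psmg3 are limited by depth.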
